A study of Mus musculus with 6 samples.

Results

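Cytosines in the second and later exons of genes were set apart from the rest of a mouse methylation data set, by the exon number in the annotation deposited with each cytosine. The rule took every listed cytosine annotated to an exon or to a non-coding transcript, unless the exon was the first of its transcript. It found 758 of the 6756 listed cytosines (11.2%). Untranslated stretches carry labels of their own in the files, so the exons described here are coding exons of protein genes and exons of non-coding transcripts.

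The cells were LSK cells, sorted by flow cytometry from the bone marrow of mice 6 months old of the strain given as CD57BL/6. The name stands for cells without markers of mature lineages and with Sca-1 and Kit on their surface, the fraction in which haematopoietic stem and progenitor cells are found. The groups were 3 samples labelled Tet1 KO and 3 samples labelled WT. The labels give neither the knockout allele nor whether a sample was 1 mouse or a pool. Methylation was read by enhanced reduced representation bisulfite sequencing with 50-base single-end reads, an assay that samples mainly CpG-rich fragments and that reads 5-methylcytosine and its hydroxymethyl form alike. The authors' deposited tables give 1 difference per cytosine in percentage points, read here as Tet1 KO minus WT because the list named hyper holds the positive values. Levels, coverage and p-values per sample were not used here. The depth and the spread between replicates behind a difference are therefore unknown, the targeted gene and the cell type could not be checked from expression, and no comparison below was tested. Ranges and SDs run over sites of a gene and are not replicate errors.

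Tet1 is a dioxygenase that oxidises 5-methylcytosine, a step towards its removal. DNA methylation at gene starts is commonly tied to silencing, whereas the bodies of active genes usually carry methylation, and CpG-dense exons can be free of it in some cell types. An exon is thus a place where a gain or a loss of methylation does not by itself tell how a gene is expressed, and expression was not measured in these files.

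Most later-exon sites were more methylated in Tet1 KO than in WT cells. Of the 758 sites, 717 were hypermethylated and 41 hypomethylated in the authors' deposited tables. Hypermethylated sites thus made up 94.6% (exact Clopper-Pearson 95% interval 92.7 to 96.1%, which covers counting error only), beside 92.8% of all listed sites. The hypomethylated share was 5.41%, beside 7.19% of all listed sites. After neighbours of like sign under 1000 bp apart had been merged into regions, 318 of 358 later-exon regions were hypermethylated (88.8%, exact interval 85.1 to 91.9%), and 89.4% of the other regions were. By region, the direction was therefore close to that of the lists as a whole.

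The hypermethylated later-exon sites had a median of 45.8 percentage points (25.3 to 96.2) by the authors' deposited table. The other hypermethylated sites had a median of 40.5 percentage points. A difference of at least 40 percentage points was reached by 468 of the 717 sites (65.3%), against 53.4% of all hypermethylated sites. At least 60 percentage points were reached by 141 (19.7%), against 12.3% of all hypermethylated sites. Sites in 5′ UTRs and first exons were closest to them, with a median of 44.8 percentage points and 20.2% at or above 60. Promoter sites had a median of 41.2, intron sites of 39.5, sites of 3′ UTRs and transcript ends of 40.5 and intergenic sites of 40.6 percentage points. Later exons and first exons thus stood at the upper end of the features, with wide overlap.

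**Figure D1:**
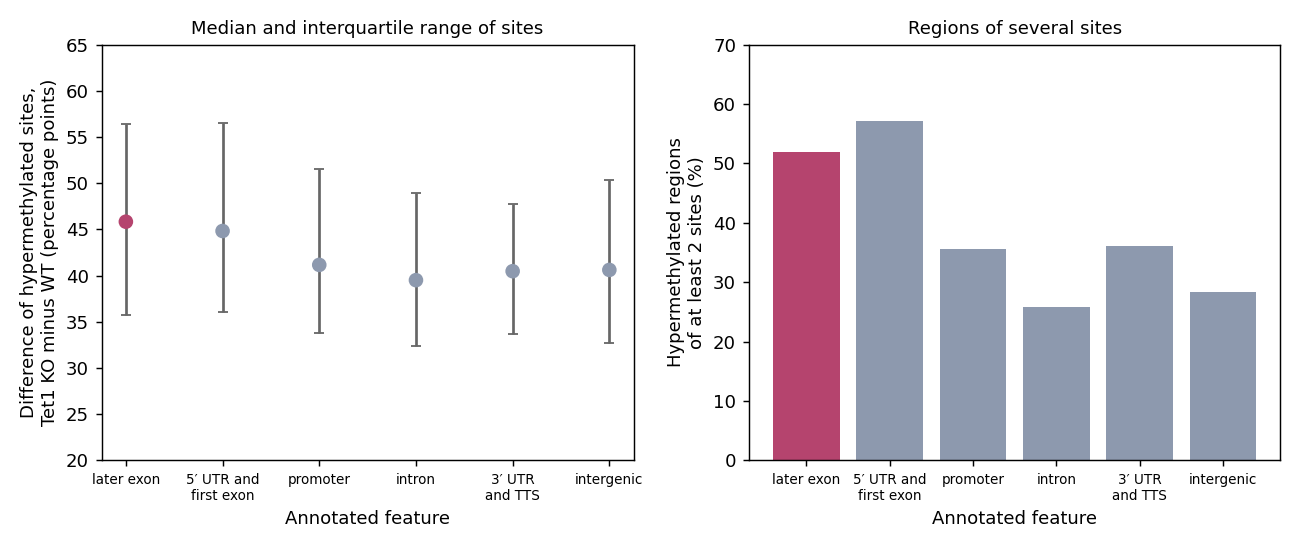
Left, the median (point) and interquartile range (line) of the listed difference of hypermethylated sites in percentage points, by annotated feature; right, the share of hypermethylated regions that held at least 2 sites. Later exons (red) had a median of 45.8 percentage points and 51.9% of regions with several sites, and 5′ UTRs and first exons had 44.8 percentage points and 57.1%.

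Later-exon sites also lay in clusters. Of the 318 hypermethylated later-exon regions, 165 held at least 2 sites of any feature (51.9%). The share was 29.99% of the other hypermethylated regions and 57.1% of those in 5′ UTRs and first exons. Regions tied between later exons and introns or intergenic stretches were counted as later-exon regions, which can raise the 51.9%. Counting later-exon sites alone, 152 of the 334 hypermethylated regions with any such site held at least 2. No such count was made for the other features. The largest, in Comp, held 15 sites, 14 of them in later exons. The size of the difference went with the size of the cluster: region means had a median of 38.7 percentage points for the 153 later-exon regions of 1 site, 40.9 for 68 regions of 2 sites, 44.1 for 54 regions of 3 or 4 sites and 51.1 for 43 regions of 5 or more. The same medians over all other features were 37.0, 41.6, 44.0 and 47.9 percentage points. In 5′ UTRs and first exons alone they were 40.5, 43.2, 48.2 and 45.8, with no further rise in the 19 regions of 5 or more sites. The 95% intervals of later exons and other features overlapped in all 4 size classes. At 5 or more sites they ran from 47.0 to 54.6 and from 46.3 to 49.9 percentage points. Per region, the medians were 43.1 percentage points in later exons (95% interval 41.3 to 44.9) and 38.9 elsewhere (38.5 to 39.5), intervals that did not overlap. A mean of at least 60 was reached by 8.18% and 6.60% of regions. Counting regions in place of sites brought later exons nearer to the rest in the median and at 60 percentage points. At 40 percentage points it hardly did: 65.3% against 51.9% by site, and 59.7% against 46.5% by region. In later exons and over all other features together, the number of sites per region moved with the difference. Its part in the counts by site was not tested.

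**Figure D2:**
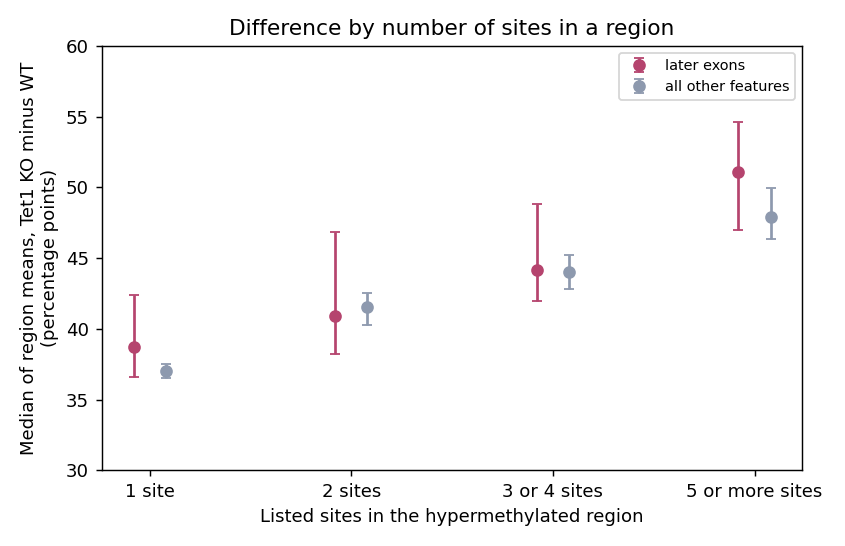
Median of the mean difference of hypermethylated regions in percentage points, by the number of listed sites in the region, for later exons (red) and all other features (grey); lines are 95% order-statistic intervals of the median. Both series rise with the number of sites, to 51.1 in later exons and 47.9 elsewhere.

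The sites lay in exons of 358 transcripts of 357 genes: 317 genes with hypermethylated sites alone, 40 with hypomethylated sites alone and 0 with later-exon sites of both directions. Such genes were rare in either direction, 1.39% and 0.178% of all protein-coding genes, so the lack of shared genes tells little. Gene names in what follows are those of the transcript whose exon holds the site. For 182 of the 758 sites (24.0%) the nearest transcription start, by which the files name sites, belonged to another gene. Of the 317 hypermethylated genes, 168 had 1 site, 63 had 2, 53 had 3 or 4 and 33 had at least 5. These 33 genes held 241 sites (33.6% of the hypermethylated sites). A single exon held all sites of 297 genes, 15 genes had sites in 2 exons and 5 in at least 3.

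Some genes hit in several exons differed between those exons, and others had overlapping values. Plekhh3, which encodes a protein with pleckstrin homology and FERM domains, had 17 sites on chromosome 11 in exons 4, 5, 7 and 11 of 13. Its 8 sites in exon 4 averaged 52.0 percentage points by the authors' deposited table (42.9 to 58.5) and its 1 site in exon 5 had 52.7. The 2 sites in exon 7 averaged 32.0 and the 6 sites in exon 11 averaged 32.2 (31.1 to 33.8). No site of exons 7 and 11 reached the lowest of exon 4. The 6 sites in exon 11 formed 1 run on the reverse strand (101025463 to 101025513). They may share reads and are not 6 independent values. Of the 17 sites, 4 had exactly the value of a same-strand neighbour. Comp, the gene of an extracellular matrix protein of cartilage, had 14 sites within 965 bp of chromosome 8. They averaged 42.5 percentage points over 8 sites in exon 7 (25.4 to 70.7), 54.0 over 2 sites in exon 9 and 45.9 over 4 sites in exon 10 of 19 in the authors' deposited table, and these ranges overlapped.

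The 5 genes with sites in 3 or more exons were Plekhh3, Comp, Fbxo41, Septin5 and Col1a1, of which Fbxo41 and Septin5 were named after their values were seen. Fbxo41 had like means in its exons but not like values. The 2 sites in exon 7 averaged 37.0 (33.4 and 40.6) and the 2 in exon 8 averaged 37.7 (25.6 and 49.9). Its 1 site in exon 11 of 14 had 41.7 percentage points. Septin5, a septin of the cytoskeleton, had 4 sites in exons 5, 7 and 8 of 12, averaging 46.8 percentage points by the authors' deposited table. The files name these sites after the platelet gene Gp1bb, whose start is nearest. Col1a1, the gene of the α1 chain of type I collagen, had 4 sites in exons 2, 13 and 14 of 51, from 30.8 to 44.9 percentage points. Cilp2, the gene of a cartilage matrix protein, had a mean of 32.2 percentage points over 3 sites in exon 2 and of 52.3 over 6 sites in exon 8 of 8. Crb2, a gene of epithelial polarity, had means of 41.7 over 3 sites in exon 3 and 49.4 over 4 sites in exon 10 of 13.

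In the other genes with many sites, 1 exon held them all, often exon 2. Kcng4, a modulatory subunit of voltage-gated potassium channels, had 12 sites within 372 bp of exon 2 of 3 on chromosome 8 (122156894 to 122157265, mm9). Its 8 sites between 122156894 and 122157154 had 55.3 to 86.5 percentage points by the authors' deposited table, and the 4 sites from 122157227 to 122157265 had 25.8 to 37.3. The cut between the 2 stretches was not set before the values were seen, so their lack of overlap follows from it. The 4 lower sites lay within the length of 1 read. Prnd, the gene of the prion-like protein doppel, had 9 sites in exon 2 of 3 on chromosome 2 (131778944 to 131779235), from 56 to 74.4 percentage points. C2cd4c, a gene of a C2 domain protein, had 9 sites in exon 2 of 2 on chromosome 10, averaging 51.8 ± 10.4 percentage points (SD over sites). Unkl, a zinc finger gene, had 9 sites within 50 bp of exon 2 of 15 on chromosome 17, all on the reverse strand and averaging 67.6 percentage points by the authors' deposited table. Values under such a short stretch still ran from 50.4 to 92.8.

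Tlr9, which encodes an endosomal receptor for unmethylated CpG DNA in immune cells, had 7 sites within 48 bp of exon 2 of 2 on chromosome 9 (106128760 to 106128807). They averaged 79.0 percentage points by the authors' deposited table, from 71.9 to 81.2, and were among the 5 highest gene means over at least 3 sites. The other 4 were Hs3st3a1, a heparan sulfate sulfotransferase gene (3 sites in exon 2 of 2, mean 81.0), Gm5294 (10 sites in exon 3 of 3, mean 75.9), Extl1, an exostosin-like glycosyltransferase gene (4 sites in exon 11 of 11, mean 73.2), and Adgrb1, an adhesion G protein-coupled receptor gene (5 sites in exon 2 of 31, mean 72.1). Gm5294 also held the site with the largest gain of all later exons, 96.2 percentage points. In Tlr9, Hs3st3a1, Gm5294 and Extl1 the exon was the last of the transcript.

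Of the other genes with most sites, 2 had values within a narrow band. AI854703, a non-coding transcript, had 10 sites within 42 bp of exon 2 of 4, all on the reverse strand, from 51.3 to 56.8 percentage points by the authors' deposited table. Siglec15, the gene of a sialic acid-binding lectin known from osteoclasts and myeloid cells, had 7 sites in exon 3 of 6 from 32.4 to 33.3 percentage points. Zfp316, a C2H2 zinc finger gene, had 10 sites spread over 1884 bp of exon 7 of 7, from 34.9 to 69.4 percentage points. Its promoter had 1 hypermethylated site as well. Btnl9, a butyrophilin-like gene (7 sites, mean 58.0), and Espnl, an espin-like gene (6 sites, mean 59.7), had all sites in the last exon, as did Evpl, which encodes envoplakin (7 sites, mean 48.1). Lingo3, a leucine-rich repeat gene, had 6 sites in exon 2 of 2 averaging 48.4, and Kcnj14, an inward rectifier potassium channel gene, had 6 in exon 2 of 3 averaging 46.5 percentage points by the authors' deposited table. Hhipl1 and the serine protease gene Prss56 each had 6 sites in exon 4, with means of 59.9 and 55.4 percentage points.

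**Figure D3:**
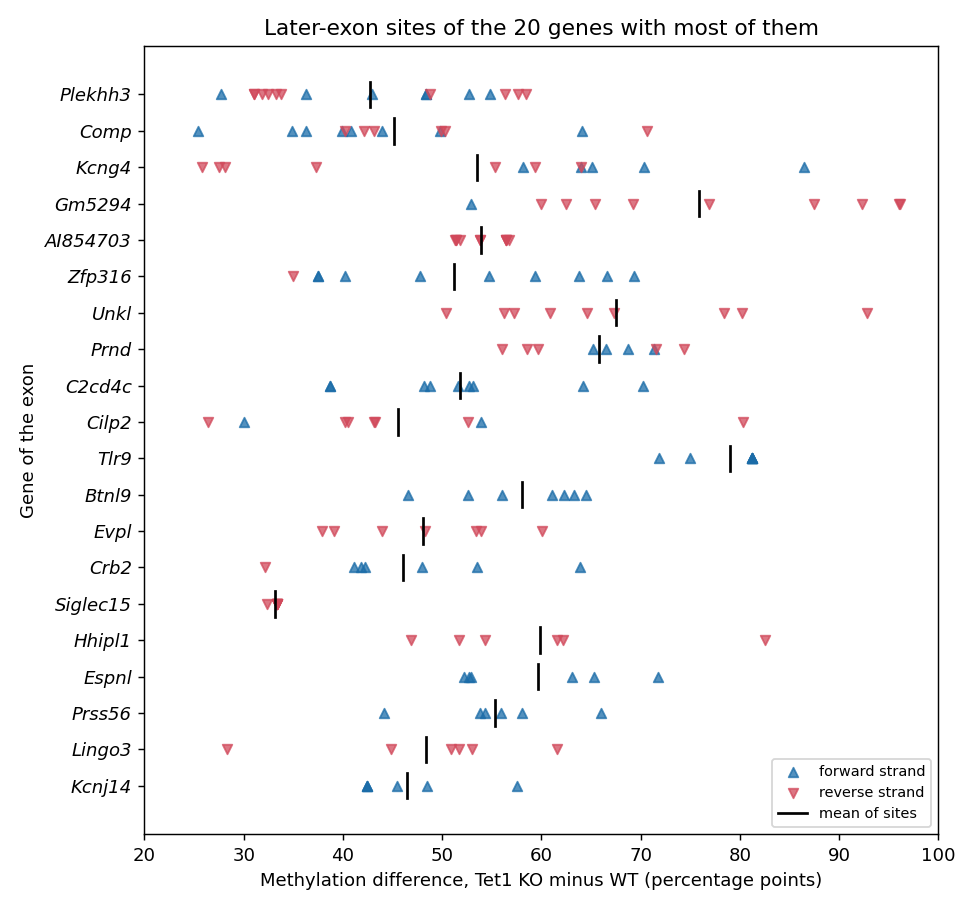
Listed difference, Tet1 KO minus WT, of every later-exon site in the 20 genes with most of them; triangles point up for forward-strand and down for reverse-strand cytosines, and the bar is the mean over sites. Tlr9 and Gm5294 had means of 79.0 and 75.9 percentage points, and the 7 sites of Siglec15 lay between 32.4 and 33.3.

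Many of the hypermethylated cytosines lay close together. Of the 717 hypermethylated sites, 472 (65.8%) had another on the same strand less than 50 bp away, within the length of 1 read, and so may share reads. These fell into 153 runs, and the SD within a run had a median of 6.01 percentage points, beside an SD of 14.5 over all 717 sites. Among the other hypermethylated sites, 44.0% lay in such runs, with a median SD of 6.17 beside 12.8 over all of them. Exactly 5 CpGs of later exons were listed on both strands. Their 2 strands differed by 2.22 percentage points (Comp), 3.62 and 14.8 (Plekhh3), 21.5 (Barhl1) and 24.6 (Ppp1r13l, named after its value was seen). Both strands were hypermethylated in all 5. In the other features, 52 CpGs were listed on both strands, with a median gap of 8.12 percentage points.

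Exon 2 was the exon with most hypermethylated sites. It held 260 of the 717 hypermethylated sites (36.3%, exact interval 32.7 to 39.9%) and 6 of the 41 hypomethylated sites (14.6%, 5.57 to 29.2%), where exons 4 and 6 held 7 each. By region, the shares were 32.4% and 15.0%, with intervals of 27.3 to 37.8% and 5.71 to 29.8%, which overlapped. The hypermethylated sites in exon 2 had a median of 48.3 percentage points. The medians were 42.8 in exon 3, 46.9 in exons 4 and 5, 44.0 in exons 6 to 10 and 43.1 in exon 11 or later. The last exon held 216 hypermethylated sites (30.1%, 26.8 to 33.6%) and 12 hypomethylated sites (29.3%, 16.1 to 45.5%), shares within each other's interval. Transcripts of 2 or 3 exons held 152 hypermethylated sites (21.2%, 18.3 to 24.4%) with a median of 50.0 percentage points. They held 3 hypomethylated sites (7.32%, 1.54 to 19.9%). By region, these shares were 18.6% (14.4 to 23.3%) and 7.5% (1.57 to 20.4%). The intervals overlapped by site and by region. The exon numbers ran from 2 to 91, the highest in Ryr1, a calcium release channel gene, with 3 sites in exon 91 of 106. The number and length of the exons that the assay read were not used here, so these shares describe the lists and not a preference for exon 2.

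**Figure D4:**
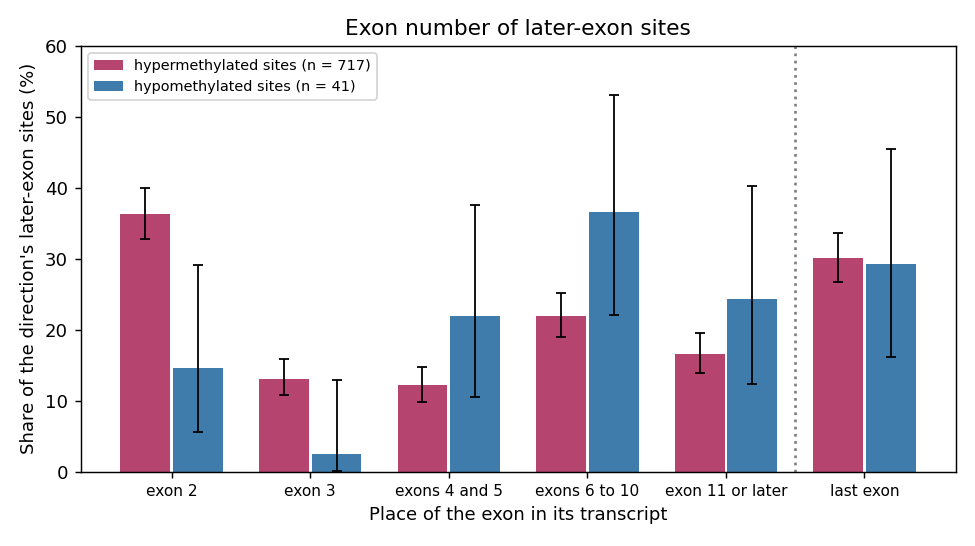
Share of later-exon sites by the number of the exon in its transcript, for the 717 hypermethylated and 41 hypomethylated sites, with exact 95% intervals for counting error; the last group, right of the dotted line, overlaps the others. Exon 2 held 36.3% of hypermethylated and 14.6% of hypomethylated sites, and the last exon 30.1% and 29.3%.

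The distance to the nearest transcription start, of whichever gene, spanned a wide range. Hypermethylated later-exon sites lay a median of 5010 bp from a start (124 to 391816 bp), and 189 of them (26.4%) lay less than 2000 bp away. The hypomethylated sites lay a median of 9091 bp away (1471 to 147931 bp), and 2 of the 41 (4.88%) lay less than 2000 bp away. Over all listed sites the contrast was wider, with medians of 6842 bp for hypermethylated and 22628 bp for hypomethylated sites. It is therefore not particular to later exons. At 100000 bp or more, 17 hypermethylated sites had a median of 34.8 percentage points, against 48.7 for the 189 nearest. Non-coding transcripts held 34 sites in 16 genes, all hypermethylated, with a median of 44.8 percentage points. These included 1 site (34.0 percentage points) in exon 2 of 2 of Hotair, a long non-coding RNA of the HOXC locus, a gene named after its value was seen.

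Every chromosome from 1 to 19 and X held hypermethylated later-exon sites. Chromosomes 11 and 7 had the most, with 90 and 86, and X had 2. Later exons made up 16% of all listed sites on chromosome 11, 17.9% on chromosome 7, 3.46% on chromosome 19 and 1.54% on X. The 41 hypomethylated sites were autosomal.

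For most of the genes, no other feature was listed. Of the 317 hypermethylated genes, 110 (34.7%) had a hypermethylated site elsewhere in the gene: 89 in an intron, 14 in the promoter, 13 in the 5′ UTR or first exon and 9 in the 3′ UTR or at the transcript end. Cspg4, which encodes the chondroitin sulfate proteoglycan NG2, had 4 sites in exons 3 and 4 of 10 beside 9 in its promoter, and those in the exons averaged 34.6 percentage points by the authors' deposited table. A hypomethylated site elsewhere was listed for 4 of the 317: in the promoter of Vrtn and in an intron of Tctn2, Nfix and Neurl1a, genes named after their values were seen. Of the 40 hypomethylated genes, 5 had a hypermethylated site elsewhere, and they were Clstn1, Ngfr, Ppp6r2, Ptprs and Zfp521, likewise named after their values were seen. No later-exon site had a listed site of the opposite direction within 1000 bp, and 7 had one within 10000 bp. No such count for the other features is given here, so this is not shown to be particular to later exons.

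The 41 hypomethylated sites were scattered. They lay in 40 genes, 39 of them with 1 site, and had a median of -32.9 percentage points (range -74.7 to -25.3) in the authors' deposited table, beside -34.3 for the other hypomethylated sites. Of the 41, 9 (22.0%) reached 40 percentage points and 1 (2.44%) reached 60, beside 29.2% and 2.88% of all hypomethylated sites. Csf2ra, a subunit of the receptor for the myeloid growth factor GM-CSF, was the gene with 2 sites, 6 bp of exon 6 of 12 on chromosome 19 with -38.9 and -37.7 percentage points. The site furthest down lay in exon 19 of 19 of Clstn1, a calsyntenin gene of the cadherin superfamily, with -74.7 percentage points by the authors' deposited table (chromosome 4, 149021635, mm9). The 2 listed intron sites of Clstn1 were hypermethylated.

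The next values, from genes named after they were seen, were -56.8 percentage points in Dok3, an adaptor of immune cell signalling, and -48.0 in Adamts9, a matrix metalloprotease gene. Soat2, which esterifies cholesterol, had -47.5, and Mast4, a kinase gene, had -45.7 percentage points by the authors' deposited table. Camk2d, a calmodulin-dependent kinase gene, and Prr5 followed with -45 each. C4a, a complement gene, had -42.9, which is uncertain because it has a near-identical neighbouring copy. Ikzf4, an Ikaros family gene, and Zfp521, a zinc finger cofactor of haematopoietic progenitors, had -30.8 and -34.8 percentage points. Of the 12 hypomethylated sites in last exons, the median was -30.9, and of the 29 in internal exons -33.3 percentage points.

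**Figure D5:**
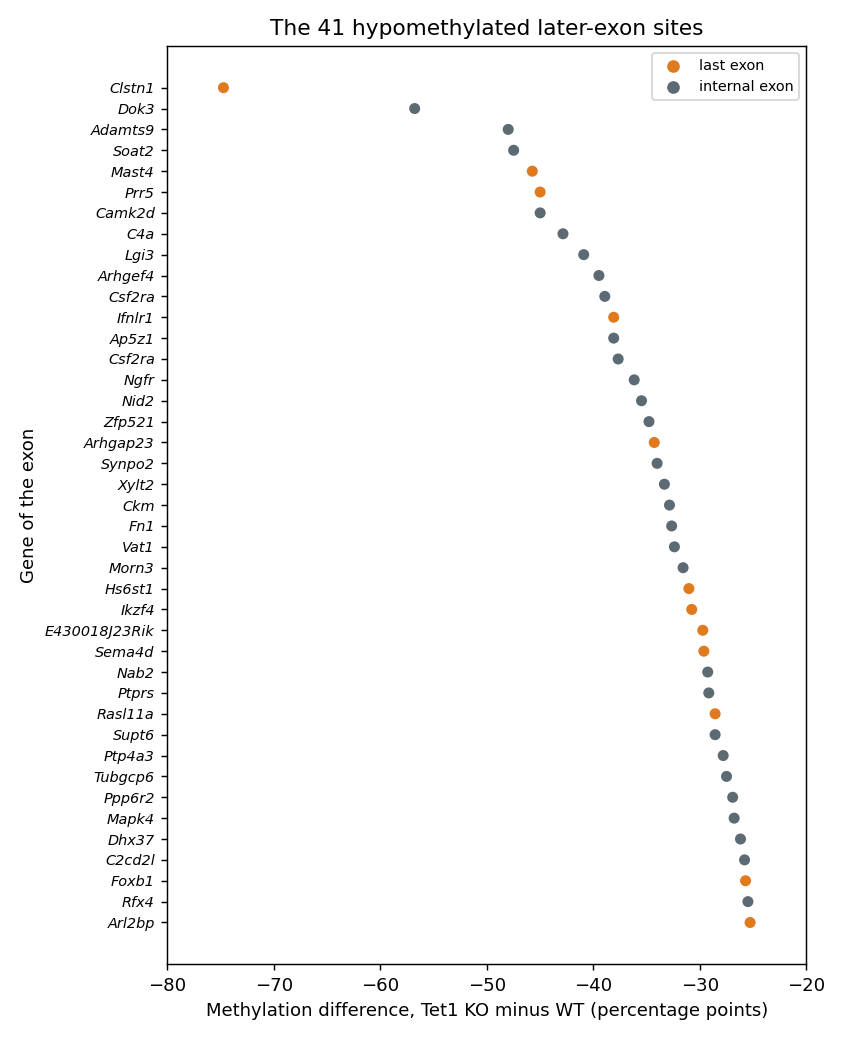
Listed difference, Tet1 KO minus WT, of the 41 hypomethylated later-exon sites, in order of size, with last exons in orange and internal exons in grey. Clstn1 had -74.7 and Dok3 -56.8 percentage points, and the other sites lay between -48.0 and -25.3.

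By function, the genes were counted in 13 lists, as a description. The lists were drawn by gene name and are not complete. In the reference, 304 of 21900 protein-coding genes (1.39%) had a hypermethylated later-exon site and 39 (0.178%) a hypomethylated one. How many of a list's exons were read is unknown, so a second share was taken over genes with any listed site in their promoter or body: 343 of 2037 such protein-coding genes (16.8%) had a later-exon site. Extracellular matrix genes had the highest of both shares among the 13 lists, 16 of 157 (10.2%) and 16 of 47 (34.0%), 13 of them hypermethylated and 3 hypomethylated. Their 37 hypermethylated sites had a median of 40.8 percentage points, below the 45.8 of all later-exon sites. Besides Comp and Col1a1 they included Tnxb, which encodes tenascin X (4 sites in exon 2 of 33, mean 42.0 in the authors' deposited table). The 3 hypomethylated members were Adamts9, Fn1 and Nid2, the last 2 coding for fibronectin and nidogen 2, with -32.7 and -35.5 percentage points.

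The lists of ion channels, G protein-coupled receptors and solute carriers held hypermethylated genes alone, where 304 of all 343 protein-coding genes with a later-exon site (88.6%) were hypermethylated. Of 267 ion channel genes, 14 had a later-exon site, all hypermethylated, which is 17.3% of the 81 with any listed site. Kcng4 and Kcnj14, described above, were among them. Of 295 G protein-coupled receptor genes in a list drawn by name patterns, which does not hold every such gene, 10 had hypermethylated sites and 0 hypomethylated sites (24.4% of 41). Their 24 sites had the highest median of the 13 lists, 61.6 percentage points. Adgrb1 held 5 of these sites, and Adra1a, the α1A-adrenergic receptor gene, had 4 in exon 2 of 4 averaging 71.8 percentage points. Of 396 solute carrier genes, 9 had hypermethylated sites (18.4% of 49), with a median of 38.6 percentage points. Slc32a1, the vesicular GABA transporter gene, and Slc12a5, the gene of the neuronal potassium-chloride cotransporter KCC2, had means of 50.6 and 50.1 over 2 sites each, those of Slc32a1 lying far apart (30.3 and 70.8). Slc4a1, which encodes the red cell anion exchanger band 3, had 2 sites in exon 10 of 20 with 43.3 and 44.0 percentage points by the authors' deposited table.

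Adhesion and guidance genes were listed for 5 of 119 cadherins and protocadherins (20.8% of 24) and 4 of 99 axon guidance, Eph and FGF genes (15.4% of 26). Beside Clstn1, the cadherin members had 1 hypermethylated site each, with 50.3 percentage points in Pcdh8, a protocadherin gene, and 36.5 in Cdh1, the gene of E-cadherin. Efnb3, which encodes an ephrin ligand, had 4 sites in exons 2 and 5 of 5 averaging 44.7. Sema5b, a semaphorin gene, and Robo3, an axon guidance receptor gene, had means of 49.0 and 35.5 over 2 sites each in the authors' deposited table. The hypomethylated member was Sema4d, with -29.6. Of 146 Wnt, Notch, TGF-β and Hedgehog genes, 6 had hypermethylated sites (18.2% of 33), with a median of 47.4 percentage points. The receptor gene Notch3 had 3 sites in exon 24 of 33 (mean 48.9), the ligand gene Gdf7 had 2 in exon 2 of 2 (mean 58.8), and the Wnt receptor gene Fzd5, which is also in the receptor list, had 2 in exon 2 of 2 (mean 52.8).

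Transcription factor genes were near or below the 16.8% of all listed genes: 5 of 39 homeobox genes (12.8%), 4 of 24 forkhead, Sox, T-box, Gata and bHLH genes (16.7%) and 7 of 48 C2H2 zinc finger genes (14.6%). Barhl1, a homeobox gene of neural development, had 6 sites in exon 2 of 4 averaging 39.9 percentage points by the authors' deposited table. The body axis gene Evx2 and the Hox gene Hoxd3 had 1 site each, with 42.9 and 38.3. Foxi2, a forkhead gene, had 5 sites in exon 2 of 2 averaging 55.4, and Hes2 and Tbx3 had 2 each, averaging 35.1 and 30.8 percentage points. Foxb1 was the hypomethylated forkhead gene, with -25.7. Zbtb4, which encodes a zinc finger protein that binds methylated CpG, had 1 site of 45.0 percentage points in exon 4 of 4, and Zfp783 had 1 of 40.2 in the authors' deposited table.

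The last 3 lists hold genes of chromatin and of blood, and each had 14 or fewer genes with any listed site. Of 192 chromatin and histone modifier genes, 1 had later-exon sites (7.14% of the 14 with any listed site): Arid3c, which encodes an ARID domain protein, with 52.1 in exon 5 and 38.5 percentage points in exon 6 of 7. Tet1, Tet2, Tet3, Dnmt1, Dnmt3a and Dnmt3b had 0 later-exon sites. Of all 21900 protein-coding genes, 343 (1.57%) had one, so a count of 0 in so few genes tells little. Dnmt3b had 1 listed site elsewhere in the gene, and 1 listed site was nearest the start of Tet2. Of 36 marker genes of LSK, erythroid, megakaryocyte, lymphoid and myeloid cells, 1 had later-exon sites (14.3% of 7, near the 16.8% of all), namely Runx3, a transcription factor of cytotoxic T cells, with 4 sites in exon 3 of 6 between 26.5 and 54.2 percentage points by the authors' deposited table. Of 57 blood cancer genes, 0 had a later-exon site, and 6 had a listed site elsewhere in the gene, too few to set against the 16.8%.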

How the data were processed

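The authors' deposited tables list cytosines that differed between 3 Tet1 KO and 3 WT samples by at least 25 percentage points, with no counts, coverage or p-values. The submitters' processing notes name Bismark and mm9. For the caller, its thresholds and the handling of replicates, the sources used here give nothing. Columns with values per sample numbered 0, so the planned test per site and its replicate block were not run, and no other test was made; values per group that could check the sign were not used here. Positions are those of the site identifiers (mm9). Transcripts were matched to genes by accession in RefSeq's table for GRCm38.p6 (351 of 358) or by the files' own pairing (7 of 358); its coordinates were not used. Sites of 1 direction under 1000 bp apart were joined, and a region took its commonest feature. A tie went to promoters first, then to 5′ UTRs and first exons, later exons, introns, intergenic stretches and transcript ends. Shares carry exact Clopper-Pearson intervals and medians order-statistic intervals (95%), with python 3.11.15, pandas 2.3.3 and scipy 1.17.1. The intervals treat sites, or regions, as independent of each other. How well they hold for sites as clustered as these was not tested.

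The members and lists were chosen with earlier results of these data known. Named were the 20 genes with most hypermethylated later-exon sites, those with at least 2 hypomethylated sites or both directions, the 5 highest means over at least 3 sites, up to 3 genes per list, the Tet and Dnmt genes, and the gene of the largest difference in each direction. Of the genes this rule names, 2 are not reported here.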

Additional observations from a re-analysis of the deposited data

How the results depend on the processing

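No paired analysis was possible because the files hold 1 difference per cytosine and no value per sample; leaving out replicates was not run for the same reason. Of 64 values (8 results under 8 alternatives), 45 stayed within the 95% interval of the reported value and 19 moved. A change of sign was not possible, because shares cannot be negative and the medians come from lists split by sign. Autosomes alone, the forward strand alone and coding transcripts alone moved none. At 40 percentage points, 98.1% of later-exon sites were hypermethylated (468 against 9), beside 3350 against 142 over all listed sites. At that threshold, 14.0% of hypermethylated sites lay in later exons. The medians were 52.8 and -45.7 percentage points, which the higher threshold sets in part. Counted as regions joined within 200, 1000 and 5000 bp, 89.7, 88.8 and 88.0% were hypermethylated, later exons held 8.65, 8.40 and 8.08% of hypermethylated regions, and the hypermethylated medians were 42.9, 43.1 and 43.7 percentage points. The share in exon 2 was 32.4 and 32.2% at 1000 and 5000 bp, and the share nearest the start of another gene 27.3% at 200 bp. Regions of at least 2 sites were a setting added after seeing the data. In later exons, 99.4% of them were hypermethylated (165 against 1), beside 1205 against 15 over all features. Later exons held 13.7% of such hypermethylated regions. The 1 hypomethylated later-exon region left had -38.3 percentage points. The list length, the 25-point threshold and the unknown depth limit every value.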

Other observations

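Some neighbouring cytosines had identical listed differences. Of the 717 hypermethylated later-exon sites, 41 (5.72%) had exactly the difference (within 1e-06 percentage points) of another listed later-exon cytosine on the same strand less than 50 bp away. Among the 5553 other hypermethylated sites, 92 (1.66%) did. Later-exon sites lay in such same-strand runs more often (65.8% against 44.0%), and the part of this in the identical values was not tested. A few genes held many of them: 7 of the 10 sites of AI854703, 6 of the 7 of Siglec15 and 5 of the 7 of Tlr9. Without these 3 genes, left out after seeing the data, the share was 23 of 693 (3.32%). Runs of 2 or more sites in which all values were identical numbered 3 of 153 in later exons and 18 of 986 elsewhere.

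The pairs of later-exon and opposite-direction sites that lay closest together, named after their values were seen, were 5818 bp and 5981 bp apart. Cyp27b1, which activates vitamin D, had 83.3 percentage points in exon 3 of 9 on chromosome 10, with a hypomethylated site of -49.0 in the 3′ end of Marchf9. Ngfr, a neurotrophin receptor gene, had -36.2 percentage points in exon 5 of 6 and 34.1 in its own intron in the authors' deposited table.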
